A study of Rattus norvegicus and Mus musculus with 12 samples.

Results

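Small leucine-rich proteoglycans (SLRPs) are short secreted matrix proteins built around a run of leucine-rich repeats. The RNA levels of 10 of their genes were followed in rat and mouse articular chondrocytes with and without interleukin-1β (IL-1β), an inflammatory cytokine that is used to imitate the osteoarthritic joint in culture. The genes were *Dcn*, *Bgn*, *Aspn*, *Fmod*, *Lum*, *Prelp*, *Omd*, *Epyc*, *Ogn* and *Chad*, and they were found by symbol. All 10 were among the 19687 genes of the rat table and the 28603 genes of the mouse table, 1 identifier per symbol and species.

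The libraries were RNA-seq of passage 1 chondrocytes from the articular cartilage of newborn animals, 24 h old, grown in medium with fetal bovine serum. The RC group held untreated cells of Sprague-Dawley (SD) rats and the RM group cells of the same strain given 20 ng/ml IL-1β for 24 h. The MC and MM groups were the untreated and the IL-1β treated chondrocytes of C57BL/6 mice, although the strain labels of the mouse libraries run from C57BL/6 to C57BL/9. Each of the 4 groups held 3 libraries, which the methods describe as independent samples without saying how many animals each one pooled, so that P values measure the spread between these libraries. Library totals were between 20169272 and 25903459 counts in rat and between 16841580 and 20048322 in mouse. Values below are FPKM (fragment counts scaled for transcript length and library total) and log2 fold changes of model minus control. The fold changes came from edgeR's quasi-likelihood test on the counts, with P values adjusted over all genes of a species by the Benjamini-Hochberg method. FPKM can be compared between genes of a species, but levels were not tested between species, whose gene lengths and annotations differ. A change was called at an adjusted P under 0.05.

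In cartilage, SLRPs sit on the surface of collagen fibrils, where they limit fibril width and hold the fibrils in register. Several of them also bind growth factors such as TGF-β, and fragments that leave the matrix can bind Toll-like receptors. Most carry chains of chondroitin, dermatan or keratan sulphate, and the family is divided into classes by sequence. *Dcn*, *Bgn* and *Aspn* belong to class I, *Fmod*, *Lum*, *Prelp* and *Omd* to class II, *Epyc* and *Ogn* to class III and *Chad* to class IV.

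In both species IL-1β was followed by more *Dcn* and *Lum* RNA and less *Bgn*, *Fmod*, *Prelp* and *Chad* RNA. In mouse, *Aspn*, *Omd* and *Ogn*, which lie side by side on chromosome 13, fell, with log2 fold changes of −6.13, −8.21 and −5.04, whereas in rat the same genes had at most 17 counts in any RC library and at most 5 in the RM libraries, apart from 29 counts of *Omd* in RM replicate 1 and 94 of *Ogn* in RM replicate 2. *Epyc* fell in rat and rose in mouse. Of the 8 members that passed the filter on low counts in rat, 7 were called, with 2 higher and 5 lower in RM, where 35.1% of all 13303 genes tested were called, 18.3% higher and 16.8% lower. In mouse all 10 passed and 10 were called, with 3 higher and 7 lower in MM, where 75% of 14774 genes were called, 37.4% higher and 37.7% lower, so that the mouse count stands near its background. Libraries of a group varied less in mouse than in rat (edgeR coefficient of variation 0.0318 against 0.106), so smaller changes could be called there. The FPKM of the groups did not overlap for 7 of the 10 members in rat, beside 47.8% of genes tested, and for 10 of 10 in mouse, beside 80.3%. The study's criteria for differentially expressed genes name a fold change above 0.85 without a scale and were read here as a change of 0.85 or more either way on the log2 scale, with P under 0.05 and FPKM of at least 1 in a library. By this reading 4 members passed in rat, *Chad* only just at −0.85, beside 8.54% of genes, and 7 in mouse, beside 25.6%. The median log2 fold change of the members tested was −0.21 in rat and −0.66 in mouse, beside 0.01 and −0.02 over all genes tested. Scaling by library totals alone moved the median of all mouse genes to −0.3 and the small mouse changes below with it, without turning the direction of any member. The rat count was 4 without RM replicate 2 and 4 without RM replicate 3, each time through the loss of *Bgn*, *Chad* and *Prelp*. Calls over all rat genes fell as well, to 3303 of 13491 tested and 3741 of 13461, against 4667 of 13303 with all libraries.

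**Figure D1:**
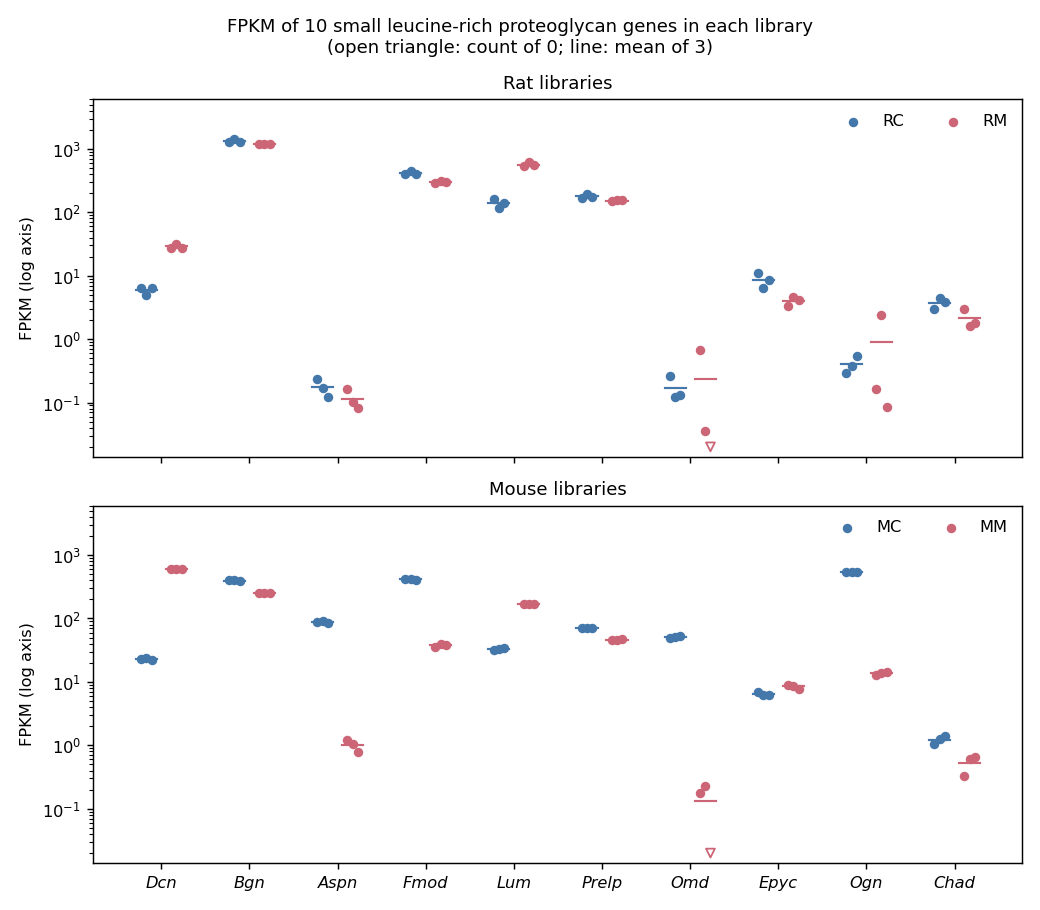
FPKM of each gene in each library on a log axis, rat above and mouse below, with control libraries in blue, model libraries in red, a line at the mean of 3 and an open triangle for a count of 0. *Dcn* and *Lum* lie higher in the model libraries of both species, and mouse *Aspn*, *Omd* and *Ogn* drop from levels of 51.25 to 545.8 FPKM to levels of 0.1349 to 13.73 FPKM.

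Decorin (*Dcn*, ENSRNOG00000004554 in rat and ENSMUSG00000019929 in mouse) binds fibrillar collagen and holds TGF-β in the matrix. In rat it read 6.385, 5.041 and 6.308 FPKM in the RC libraries and 27.59, 31.41 and 27.62 FPKM in the RM libraries. Every RM library lay above every RC library, and the means of 5.911 ± 0.7545 and 28.87 ± 2.198 (SD, n = 3) differed by 4.884 times. The log2 fold change was 2.27 (SE 0.109, adjusted P = 1.85e-07), the 107th highest of all rat genes tested. In mouse *Dcn* read 22.66, 23.63 and 22.4 FPKM in MC and 606.8, 602.8 and 594.8 FPKM in MM. The mouse groups stood 26.27 times apart by mean FPKM, with a log2 fold change of 4.99 (SE 0.0299, adjusted P = 2.69e-78). Decorin was thereby the eighth SLRP by level in MC and the first in MM.

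Biglycan (*Bgn*, ENSRNOG00000055962 and ENSMUSG00000031375) is the closest relative of decorin and, when set free, a ligand of TLR2 and TLR4. Its rat levels of 1288, 1437 and 1287 FPKM in RC and 1172, 1186 and 1212 FPKM in RM made it the most abundant SLRP of rat chondrocytes with or without IL-1β. The RM libraries lay just below the RC libraries, by −0.18 on the log2 scale (SE 0.061, adjusted P = 0.0385). This call was lost with the replicate number as a block (adjusted P = 0.0635) and without any single RM library (adjusted P of 0.0932 to 0.13). In mouse *Bgn* read 399.2, 398.3 and 391.6 FPKM in MC and 251.2, 251.5 and 255.5 FPKM in MM. All MM libraries were lower, with a log2 fold change of −0.37 (SE 0.0239, adjusted P = 7.01e-22) that became −0.65 when libraries were scaled by their totals alone.

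Asporin (*Aspn*, ENSRNOG00000015410 and ENSMUSG00000021388) binds collagen and TGF-β like decorin and owes its name to a stretch of aspartate near its start. That stretch is shown because it separates asporin from its class I relatives in sequence. It lies at chr13:49551760-49551816 on the plus strand of GRCm38, within 1 coding exon, and spans codons 33 to 51. It holds 2 unbroken runs of 4 aspartate codons, and capitals mark the first of them:
Aspn: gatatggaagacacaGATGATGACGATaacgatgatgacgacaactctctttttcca
The first 60 codons of mouse *Aspn* held 10 aspartate codons, those of *Bgn* 7 and those of *Dcn* 4, and the longest run was 4 codons in *Aspn*, 2 in *Bgn* and 1 in *Dcn*. In mouse *Aspn* read 87.43, 90.12 and 84.67 FPKM in MC and 1.229, 1.042 and 0.7776 FPKM in MM. These were 10675 counts in the 3 MC libraries and 138 in the 3 MM libraries, with a log2 fold change of −6.13 (SE 0.0736, adjusted P = 2.55e-61), the 41st lowest of all mouse genes tested. In rat the gene had 9, 6 and 4 counts in RC and 5, 4 and 3 in RM and was not tested. The groups overlapped, and at 19 against 12 counts in all a change of *Aspn* in rat was not detectable at this depth.

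Fibromodulin (*Fmod*, ENSRNOG00000003183 and ENSMUSG00000041559) and lumican (*Lum*, ENSRNOG00000004610 and ENSMUSG00000036446) are keratan sulphate proteoglycans of class II that bind the same region of fibrillar collagen. Fibromodulin read 399.9, 451.3 and 398.3 FPKM in RC and 291.3, 316.1 and 304.8 FPKM in RM. All RM libraries were lower, by −0.47 on the log2 scale (SE 0.069, adjusted P = 0.00045). In mouse the gene read 418.7, 413.6 and 407.9 FPKM in MC and 36.06, 39.05 and 38.76 FPKM in MM. The mean *Fmod* level was 10.89 times lower in MM than in MC, with a log2 fold change of −3.17 (SE 0.0313, adjusted P = 4.71e-66).

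Lumican moved the other way. It read 160.3, 116.9 and 138.1 FPKM in RC and 535.1, 610.2 and 551.2 FPKM in RM, without overlap and with a log2 fold change of 2.01 (SE 0.109, adjusted P = 4.77e-07). In mouse it read 31.64, 33.62 and 34.65 FPKM in MC and 167, 166.6 and 168.3 FPKM in MM, a log2 fold change of 2.61 (SE 0.0355, adjusted P = 2.53e-58). *Lum* therefore passed *Fmod* in level in the model groups of both species, with mean FPKM of 565.5 ± 39.51 against 304.1 ± 12.41 in RM and 167.3 ± 0.8983 against 37.95 ± 1.647 in MM (SD, n = 3).

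The rat promoters of both genes are shown because these class II relatives changed in opposite directions. They are the 250 bases before the annotated start, from RefSeq on build GRCr8, at chr7:34245456-34245705 for *Lum* and chr13:48045317-48045566 for *Fmod*, both on the plus strand. Capitals mark the letters that matched a searched motif:
Lum: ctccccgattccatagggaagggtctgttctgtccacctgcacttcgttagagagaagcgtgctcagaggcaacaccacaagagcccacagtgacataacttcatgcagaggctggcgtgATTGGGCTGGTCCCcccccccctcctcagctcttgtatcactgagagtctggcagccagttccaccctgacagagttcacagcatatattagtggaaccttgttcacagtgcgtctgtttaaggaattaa
Fmod: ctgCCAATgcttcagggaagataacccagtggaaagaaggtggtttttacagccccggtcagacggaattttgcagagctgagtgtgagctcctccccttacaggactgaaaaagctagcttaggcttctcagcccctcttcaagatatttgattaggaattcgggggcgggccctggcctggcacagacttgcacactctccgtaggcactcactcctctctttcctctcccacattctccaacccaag
RefSeq windows from 250 bases before to 50 after the start were found for 7 of the 10 members and searched on both strands. The NF-κB pattern, GGGA and then CC after 4 bases of any kind, was in 1 of the 7, *Lum*, on the reverse strand from position −126, where it shares its first base with a CCAAT match that begins at −130, and it was in 19.3% of all 33469 promoter windows. The CCAAT box was in the windows of *Fmod* and *Lum* and in 37.5% of all windows, and TATAAA was in those of *Chad* and *Ogn* and in 14.2%. The AP-1 pattern TGANTCA, the C/EBP pattern TTGCNNAA and the SOX pattern AACAAT were in none of the 7 and in 7.33%, 10.6% and 11.7% of all windows.

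PRELP (*Prelp*, ENSRNOG00000003120 and ENSMUSG00000041577) has a basic amino end that binds heparan sulphate. It read 169.1, 193.3 and 172.7 FPKM in RC and 149.8, 155.1 and 153.6 FPKM in RM. The RM libraries were lower by −0.24 on the log2 scale (SE 0.068, adjusted P = 0.0203), a call that was lost when any single RM library was left out (adjusted P of 0.062 to 0.085). In mouse *Prelp* read 71, 71.76 and 70.91 FPKM in MC and 45.59, 45.69 and 46.96 FPKM in MM. The log2 fold change was −0.35 (SE 0.033, adjusted P = 8.62e-15), and −0.63 with scaling by library totals alone. Of its 3615 exon bases in mouse, 350 are shared with the antisense gene *Gm15851*, which had 2 counts in the MC and 3 in the MM libraries. How reads of the shared bases were counted is not known, since the strand setting is not given.

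Osteomodulin (*Omd*, ENSRNOG00000039560 and ENSMUSG00000048368) is an acidic keratan sulphate proteoglycan known from mineralised tissue. The mouse counts were 1892, 1934 and 2163 in MC and 8, 10 and 0 in MM, or 51.25 ± 2.214 against 0.1349 ± 0.1195 FPKM (SD, n = 3). Its log2 fold change was rank 5 from the lowest of all 14774 in mouse, at values of −8.75 to −7.68 when 1 library at a time was left out, and the SE of 0.129 understates the error because so few counts remained. In MM replicate 3, which had 0 counts, the depth allows up to 0.172 CPM (3 counts). In rat *Omd* had 14, 6 and 6 counts in RC and 29, 2 and 0 in RM, and 1 library, RM replicate 1, thus held 29 of the 31 model counts. The rat groups overlapped and were not tested.

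Epiphycan (*Epyc*, ENSRNOG00000004717 and ENSMUSG00000019936) is a dermatan sulphate proteoglycan of growth cartilage. It read 11.18, 6.343 and 8.59 FPKM in RC and 3.283, 4.557 and 4.067 FPKM in RM. All RM libraries were lower, with a log2 fold change of −1.14 (SE 0.199, adjusted P = 0.00134). In mouse it read 6.82, 6.26 and 6.132 FPKM in MC and 8.92, 8.703 and 7.795 FPKM in MM. All MM libraries were higher, with a log2 fold change of 0.69 (SE 0.0842, adjusted P = 8.3e-11) that was 0.41 with scaling by library totals alone. *Epyc* was the 1 member called in opposite directions in the 2 species, and 12.5% of the 10912 genes tested in both species were. Of its 2561 exon bases in mouse, 1041 are shared with the lincRNA *Gm10754* of the opposite strand, which had 0 counts in MC and 2 in MM. The strand setting of the counting is not given, so the mouse *Epyc* level may lack or hold reads of these shared bases.

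Osteoglycin (*Ogn*, ENSRNOG00000047786 and ENSMUSG00000021390), also called mimecan, is a small class III member found in bone and other connective tissue. In mouse it was the most abundant SLRP of the control cells, at 549.8, 542.1 and 545.5 FPKM in MC, and it read 12.95, 13.87 and 14.38 FPKM in MM. The mean was 39.75 times lower in MM, with a log2 fold change of −5.04 (SE 0.0363, adjusted P = 6.91e-74). In rat *Ogn* had 11, 13 and 17 counts in RC and 5, 94 and 3 in RM. The 94 counts of RM replicate 2 set the rat estimate, which was 1.19 (SE 0.933, adjusted P = 0.35) with that library and −1.70 (adjusted P = 0.0578) without it.

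Chondroadherin (*Chad*, ENSRNOG00000003304 and ENSMUSG00000039084) is a cartilage protein that binds integrin α2β1 and collagen. It read 3.002, 4.456 and 3.871 FPKM in RC and 2.993, 1.617 and 1.783 FPKM in RM. The lowest RC library and the highest RM library were nearly level, and the log2 fold change was −0.85 (SE 0.237, adjusted P = 0.0184), a call lost without RC replicate 2 or 3 or RM replicate 2 or 3 (adjusted P of 0.0609 to 0.0694). In mouse *Chad* had 30, 35 and 43 counts in MC and 11, 20 and 19 in MM. All MM libraries were lower, with a log2 fold change of −0.96 (SE 0.305, adjusted P = 0.00375), and the call was lost without MM replicate 1 (−0.69, adjusted P = 0.0529).

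The question whether rat and mouse chondrocytes answered IL-1β alike was put to each member by a test of the difference between the changes, mouse minus rat, in 1 edgeR fit of the 10912 genes tested in both species. The difference was called for 6 of the 8 members that could be tested, 3 above and 3 below 0, where 63.8% of all genes were called, 31.4% above and 32.3% below. *Dcn* rose more in mouse by 2.72 on the log2 scale (SE 0.11, adjusted P = 8.74e-13) and *Lum* by 0.59 (SE 0.12, adjusted P = 0.000388). For *Lum* the difference missed the threshold with limma on log2(FPKM + 1), at 0.26 and an adjusted P of 0.0686. It also missed with limma on log2(FPKM + 0.1), at 0.29 and an adjusted P of 0.0531. With scaling by library totals alone the *Lum* difference was 0.30 (adjusted P = 0.0364).

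*Fmod* fell further in mouse, by −2.70 (SE 0.081, adjusted P = 4.06e-14), and *Epyc* differed by 1.83 with opposite signs (SE 0.23, adjusted P = 2.44e-06). *Ogn* differed by −6.30 (SE 0.81, adjusted P = 3.33e-06), and by −3.34 without RM replicate 2. *Bgn* differed by −0.19 (SE 0.069, adjusted P = 0.0277) and by −0.48 (adjusted P = 1.09e-05) with scaling by library totals alone. This call was lost when any 1 of 8 single libraries was left out (adjusted P of 0.054 to 0.071). These were RC replicates 1 and 3, RM replicate 3, MC replicates 1 and 2 and each MM replicate. The call was also lost with DESeq2-style size factors (adjusted P = 0.0501). *Prelp* and *Chad* were not called, at −0.11 (approximate 95% interval −0.25 to 0.03, adjusted P = 0.199) and −0.10 (−0.95 to 0.74, adjusted P = 0.843). With scaling by library totals alone *Prelp* differed by −0.41 (adjusted P = 0.000113). *Aspn* and *Omd* could not be compared because their rat counts were too low.

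**Figure D2:**
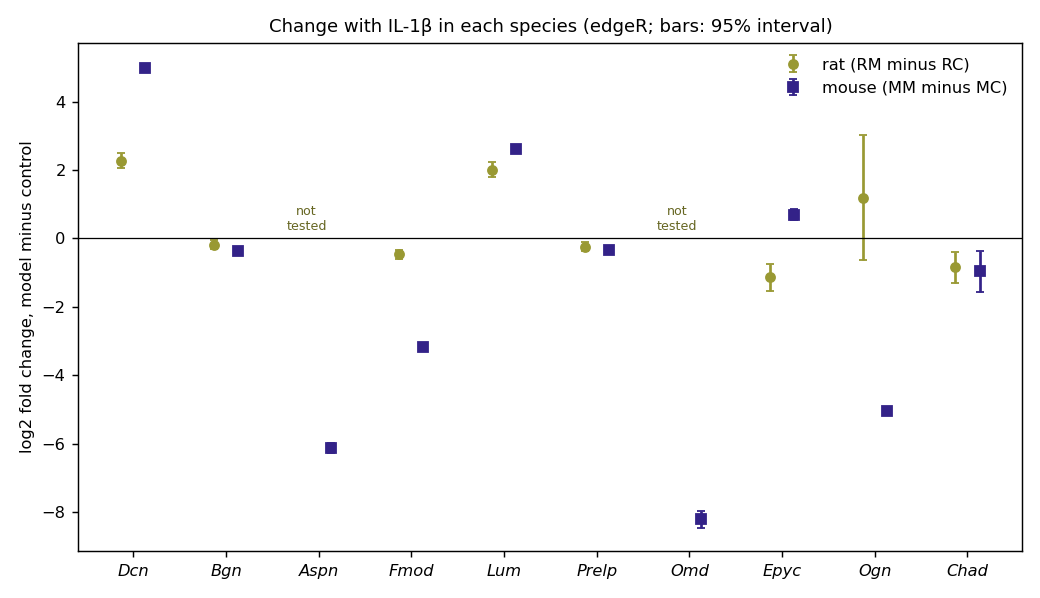
Log2 fold change of model minus control for each gene in rat (circles) and mouse (squares) from edgeR, with bars for an approximate 95% interval. The bars come from the SE by a normal approximation and are narrower than the edgeR test implies. *Dcn* at 2.27 and 4.99 and *Lum* at 2.01 and 2.61 lie above 0 in both species, *Epyc* lies on opposite sides at −1.14 and 0.69, and rat *Aspn* and *Omd* were not tested.

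The make-up of the SLRP transcripts was compared as each gene's share of the summed FPKM of the 10 members. In RC, *Bgn* held 64.0% ± 0.854 (SD, n = 3), *Fmod* 19.9% ± 0.405, *Prelp* 8.53% ± 0.218 and *Lum* 6.66% ± 1.3. In RM the share of *Bgn* was 52.9% ± 1.34 and *Lum* came second with 25.1% ± 1.14, ahead of *Fmod* at 13.5% ± 0.177. *Dcn* held 0.285% ± 0.0493 in RC and 1.28% ± 0.0703 in RM and so stayed a minor SLRP of the rat cells. Of neighbours in this order the ranges overlapped for *Epyc* and *Dcn* and for *Aspn* and *Omd* in RC, and for *Chad*, *Ogn*, *Omd* and *Aspn*, each with the next, in RM.

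In MC the order was *Ogn* with 33.5% ± 0.247, *Fmod* with 25.4% ± 0.187, *Bgn* with 24.3% ± 0.118 and *Aspn* with 5.36% ± 0.148. *Prelp* followed with 4.37%, *Omd* with 3.15%, *Lum* with 2.04% and *Dcn* with 1.41%, and *Epyc* and *Chad* were below 0.4%. In MM *Dcn* held 53.3% ± 0.481, *Bgn* 22.4% ± 0.237 and *Lum* 14.8% ± 0.0959, while *Ogn* held 1.22% ± 0.0654. No neighbours in the mouse orders overlapped in either group.

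The summed FPKM of the 10 members was 2039, 2215 and 2016 FPKM in RC and 2183, 2307 and 2255 FPKM in RM, a log2 ratio of 0.11 whose groups overlapped (exact permutation test, two-sided, P = 0.2). Without *Bgn*, the most abundant member, the rat log2 ratio was 0.49. In mouse it was 1637, 1632 and 1619 FPKM in MC and 1130, 1130 and 1128 FPKM in MM, a log2 ratio of −0.53. The mouse groups did not overlap, and the exact permutation P of 0.1 is the smallest that 3 against 3 libraries allow. With FPKM divided by the TMM factors the mouse ratio was −0.25.

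**Figure D3:**
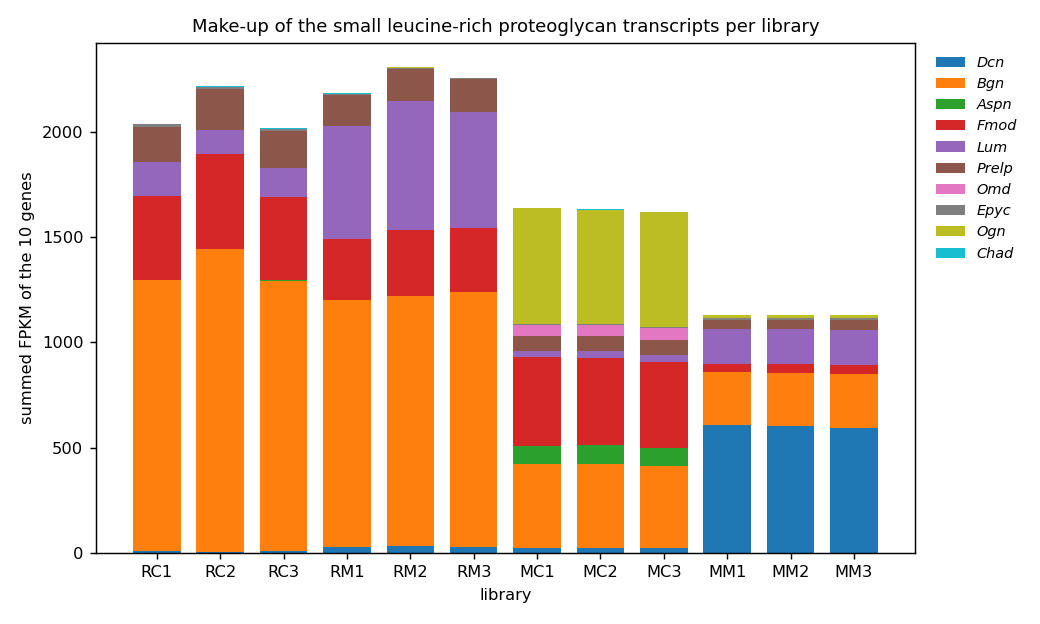
Summed FPKM of the 10 genes in each of the 12 libraries, stacked by gene. The rat bars reach 2016 to 2307 FPKM and are mostly *Bgn*, with a wider *Lum* band in RM, and the mouse bars go from 1619 to 1637 FPKM in MC, led by *Ogn*, to 1128 to 1130 FPKM in MM, led by *Dcn*.

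In the mouse genome (GRCm38, GENCODE M21) 8 of the 10 genes lie in 3 clusters. *Dcn* (chr10:97479609-97518143), *Lum* (chr10:97565128-97572703) and *Epyc* (chr10:97644068-97682454) are on the plus strand within 202846 bases, with *Kera* between *Lum* and *Epyc*. All 3 rose in mouse, by 4.99, 2.61 and 0.69 in this order along the chromosome, while *Kera*, the gene of keratocan, was at or near 0 in every library. *Btg1*, an antiproliferative gene and the nearest protein-coding gene before *Dcn*, was higher at 2.39 in mouse and 0.79 in rat. It does not adjoin the cluster: counted from the start of *Btg1*, that gene ends at 5.8 kb and *Dcn* begins at 862.6 kb.

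*Aspn* (chr13:49544443-49567565), *Omd* (chr13:49582462-49592822) and *Ogn* (chr13:49608046-49624501) lie within 80059 bases on the plus strand, inside the span of *Cenpp*, a centromere protein gene of the opposite strand, with which *Aspn* shares 7 exon bases and the others none. All 3 fell in mouse, together with *Cenpp* at −3.03 (SE 0.238) and *Ecm2*, the SLRP gene next to *Aspn*, at −3.61 (SE 0.178). *Nol8*, the flanking gene beyond *Ogn*, gave −0.03 (SE 0.0819, adjusted P = 0.766) in mouse, and −0.31 (adjusted P = 0.000582) with scaling by library totals alone. *Ecm2* read 2.443 ± 0.1949 FPKM in MC and 0.163 ± 0.01232 FPKM in MM.

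*Prelp* (chr1:133910304-133921414, minus strand) and *Fmod* (chr1:134037254-134048277, plus strand) lie within 137974 bases between *Optc* and *Btg2*. Both fell in mouse, at −0.35 and −3.17, whereas *Btg2* was higher by 2.34. *Bgn* (chrX:73483602-73495933, plus strand) stands alone, and *Chad* (chr11:94565047-94569127, plus strand) lies inside *Acsf2* of the opposite strand without shared exon bases. *Acsf2* was lower in mouse at −1.89 (SE 0.0975), and in rat it gave −0.21 (adjusted P = 0.174). In the rat RefSeq assembly GRCr8 the members stand in the same 3 groups, with *Rpl6-ps6* and not *Ecm2* listed next to *Aspn*. The rat counts were made on another build, Rnor_6.0, and apart from the promoter windows above no rat positions are given.

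**Figure D4:**
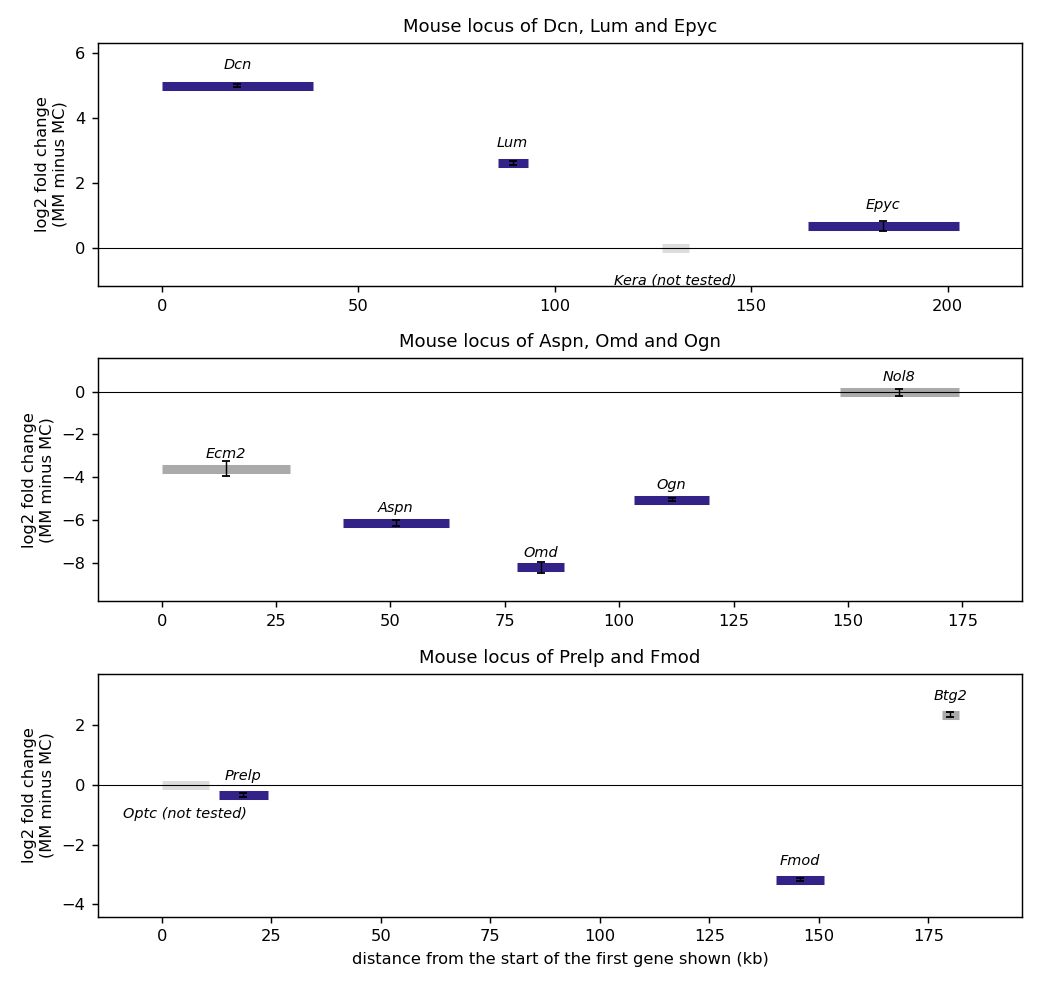
Log2 fold change (MM minus MC) of the protein-coding genes of 3 mouse loci against distance in kb from the first gene shown. Members are in dark blue and other genes in grey, with bar length for gene length. Black bars give an approximate 95% interval from the SE. *Aspn*, *Omd* and *Ogn* lie between −8.21 and −5.04 beside *Ecm2* at −3.61, and *Dcn*, *Lum* and *Epyc* all lie above 0. *Cenpp*, which spans the second locus, and *Btg1* are not drawn.

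Of 8 other SLRP genes, 7 were matched in rat and 8 in mouse. *Tsku*, which encodes tsukushi, an inhibitor of BMP signalling, read 10.61 ± 0.3967 FPKM in MC and 126.1 ± 3.509 FPKM in MM (SD, n = 3), a log2 fold change of 3.85 (SE 0.0412, adjusted P = 4.07e-64). In rat *Tsku* read 40.83 ± 2.493 and 41.35 ± 2.01 FPKM, with a log2 fold change of 0.00 (SE 0.075). *Chadl* was lower in both species at −0.71 in rat and −0.44 in mouse, *Podnl1* was called in rat at −0.46 and *Podn* in mouse at −0.99. In all 2 of 4 tested were called in rat, both lower, beside 35.1% of all genes. In mouse 4 of 5 were called, 3 lower and 1 higher, near the 75% of all genes.

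The counts of the lists that follow stand beside 35.1% of all genes called in rat and 75% in mouse. With 1 rat library left out, 3303 to 6251 of all rat genes were called, against 4667 with all libraries. Of the enzymes that build the linker and the chondroitin or dermatan chains, 10 of 18 were called in rat, 9 lower, with a list median of −0.21. The smallest P values there were those of *B3gat3* at −0.76 and the dermatan 2-O-sulphotransferase gene *Ust* at −0.59. *Ust* was also called lower in mouse, at −0.41. Mouse *B3gat3* was called at 0.21, although its mean FPKM was 24.65 in MC and 23.48 in MM. In mouse 14 of 18 were called, near the 75% of all genes, 9 lower and 5 higher, with a median of −0.21. *Csgalnact1*, which starts chondroitin chains, fell by 1.52 there, while *Xylt1*, which adds the first sugar of the linker, was 0.91 in mouse and −0.48 in rat. Without RC replicate 3 or RM replicate 2 the rat count was 5 or 6.

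Of the genes for keratan sulphate and sulphate supply, 5 of 10 were called in rat, 4 lower, beside 35.1% of all genes, and 7 of 9 in mouse, 6 lower, near the 75% of all genes. The list medians were −0.07 and −0.58. The sulphate transporter *Slc26a2* was lower at −0.64 in rat and −1.78 in mouse. *Papss1*, which makes the activated sulphate donor, gave −0.65 and −0.39, and *Papss2* gave 0.12 (adjusted P = 0.226) in rat and −1.30 in mouse. The rat count was 3 with RC replicate 2 or RM replicate 1 left out and 2 with RC replicate 3 left out.

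Proteases that can cut SLRPs were called in 10 of 11 cases in each species, 8 higher in rat and 5 higher in mouse, with medians of 0.80 and −0.24. *Mmp3*, stromelysin 1, read 13.34 ± 0.6761 FPKM in RC and 817.3 ± 53.8 FPKM in RM, and 0.9541 ± 0.2705 FPKM in MC and 7967 ± 51.53 FPKM in MM. *Mmp13*, collagenase 3, rose by 3.03 in rat and 4.96 in mouse. Most collagens that SLRPs bind moved down, with medians of −0.90 in rat and −1.43 in mouse. In rat 15 of 15 were called lower, and in mouse 14 of 16 were called lower and 2 higher. Among receptors and ligands of SLRPs, 6 were higher and 3 lower of 18 in rat, and 11 higher and 5 lower of 18 in mouse. *Tlr2*, the receptor of free biglycan, rose by 5.04 in rat and 2.93 in mouse. *Met* was called at 1.02 in rat and 0.38 in mouse, where it was 0.10 and not called with scaling by library totals alone. *Tgfb2* was called at −0.26 in rat and −2.21 in mouse.

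Markers of the cell types that the cultures could hold moved beside these changes, and in bulk RNA fewer cells of a type and less RNA per cell cannot be told apart. All 10 chondrocyte markers were called lower in both species, among them *Col2a1* (−1.60 and −3.57), *Acan* (−1.80 and −3.94) and *Sox9* (−0.65 and −1.06), and their summed FPKM went from 5080 to 5720 in RC to 2010 to 2050 in RM, and from 2400 to 2450 in MC to 210.0 to 224 in MM. Of fibroblast markers 1 was higher and 3 lower of 8 in rat and 3 higher and 4 lower of 7 in mouse, with summed FPKM of 1650 to 1810 against 1200 to 1250 and of 474 to 485 against 415 to 423. Of 4 tenocyte markers 1 was higher of 3 tested in rat, and 1 was higher and 2 were lower in mouse, with sums of 39.0 to 43.8 against 46.7 to 51.7 and of 65.8 to 72.8 against 50.4 to 51.9 FPKM. Osteoblast markers were lower in 3 of 4 tested in rat and 6 of 6 in mouse, with sums of 11.8 to 12.4 against 4.48 to 5.6 and of 20.5 to 21.3 against 4.38 to 4.69 FPKM. The rat tenocyte count was 0 without RC replicate 3 and the rat osteoblast count 1 without RM replicate 3, and without RM replicate 1 they were 0 and 1.

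Macrophage and leukocyte markers summed to 8.54 to 9.61 FPKM in RC and 9.34 to 12.7 in RM. In mouse they summed to 5.65 to 6.23 in MC and 10.7 to 13.6 in MM. Of the 9 listed, 6 were matched and 4 tested in rat, with 1 called higher and 2 lower. In mouse 8 were matched but only 3 passed the filter on low counts, and 1 had 0 counts in every library. All 3 tested were called higher in mouse, among them *Cd68* and *Lyz2*, or 2 with scaling by library totals alone. Endothelial markers summed to less than 1 FPKM in every library and were too low to be tested in rat, and 2 were called in mouse, 1 each way, or 1 without MM replicate 3. Muscle markers summed to 3.29 to 5.6 FPKM in rat and 1.04 to 5.03 FPKM in mouse, with 2 called in mouse, both lower. The part of these shifts in the SLRP changes was not tested.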

How the data were processed

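For each species the authors deposited 1 table of raw read counts per Ensembl gene and library, with FPKM that they computed from the counts. The submitters' processing notes name HISAT2, HTSeq 0.11.2, GRCm38 and Rnor_6.0. The strand setting is not given in the sources used here, so reads of overlapping genes on opposite strands cannot be told apart. Replicates were not pooled.

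The counts of each species were fitted on their own with edgeR 4.0.16 under R 4.3.3 (filterByExpr, TMM, glmQLFit, glmQLFTest), and the species difference was fitted over the 10912 genes shared by symbol. TMM factors were 0.9941 to 1.008 in rat, 1.099 to 1.104 in MC and 0.905 to 0.9105 in MM, so mouse FPKM ratios lie below the fitted changes. Over all mouse genes the median change (log2) was −0.02 with TMM and −0.3 with library totals alone. Alternatives were DESeq2 1.42.0, its size factors, library totals alone, no filter, limma 3.58.1 on log2(FPKM + 1) and log2(FPKM + 0.1), a replicate block, the study's DEG criteria (a fold change greater than 0.85, read here as log2 and applied as at least 0.85 either way, with P under 0.05 and FPKM of at least 1) and leaving out each library. The tests were run on simulated counts with known changes, as many higher as lower. Such counts cannot decide between TMM and library totals in mouse, where the TMM factors of the groups differed.

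The 10 members and all gene lists were chosen with earlier results of these data known. Named were all members, at most the 2 genes with the smallest adjusted P of each other list and species, *Col2a1*, *Acan* and *Sox9*, the other SLRP genes, and genes next to or overlapping members. Further genes given in the second species were named there because the rule named them in the first. No protein sequences were used here. Replicates of every group differed by more than sampling noise, and those of rat by more than those of mouse. Chi-square per degree of freedom was 5.94 to 27.6 between rat libraries of a group and 1.88 to 2.45 between mouse libraries.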

Additional observations from a re-analysis of the deposited data

Results flagged for a closer look

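The change with IL-1β differed between the species by the edgeR test of the difference itself for 6 of the 8 members tested. As mouse minus rat on the log2 scale, the differences were 2.72 for *Dcn*, 0.59 for *Lum*, 1.83 for *Epyc*, −0.19 for *Bgn*, −2.70 for *Fmod* and −6.30 for *Ogn*. At 63.8% of all genes tested, such a difference was common. The *Ogn* value rests in part on 1 library with 94 counts, and *Bgn* was the closest to the threshold. Species, strain and culture cannot be told apart in this design.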

How the results depend on the processing

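Of 140 values of single members in mouse under the alternatives, 136 kept their direction and their side of the threshold and 4 lost the call. In rat 94 of 112 did, 17 lost the call and 1 turned, *Ogn* at −1.70 without RM replicate 2 (range −1.70 to 1.72 over the libraries left out). Of 151 values of the species difference 131 did, 11 lost the call, 4 gained it and 5 turned, all for *Chad*, at 0.07 with limma on log2(FPKM + 1) and at −0.27 to 0.20 over the libraries left out, above 0 without RC replicate 1, MM replicate 1, MC replicate 3 or RM replicate 1. DESeq2 gave no adjusted P for the species difference of *Ogn*. *Tsku* in rat was −0.00 with DESeq2 or its size factors and −0.05, −0.01 and −0.03 when RC replicate 1, RC replicate 3 and RM replicate 3 were left out. *Nol8* in mouse was 0.02 without MM replicate 3.

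The number of members called was 4 to 7 in rat and 9 to 10 in mouse when 1 library was left out, and 5 to 7 for the species difference. Over all genes, the calls then were 3303 to 6251 in rat, against 4667 with all libraries. They were 10824 to 10937 in mouse, against 11085, and 6591 to 7544 for the species difference, against 6959. With the study's DEG criteria, read on the log2 scale, it was 4 in rat, where 8.54% of all genes passed, and 7 in mouse, where 25.6% did. The log2 ratio of the summed FPKM was 0.49 in rat and −0.49 in mouse without *Bgn*, −0.25 in mouse with TMM factors, and 0.08 to 0.15 in rat and −0.53 to −0.52 in mouse without 1 library. Over all genes, library totals alone gave 3697 higher and 8077 lower calls in mouse, against 5521 and 5564 with TMM, and 2189 and 5398 for the species difference, against 3429 and 3530.

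Same-numbered control and model libraries did not deviate together (r of 0.024, −0.098 and 0.085 in rat and of 0.001, 0.015 and 0.005 in mouse). Rat libraries of unlike number gave r of −0.185 to 0.162. No pairing was seen, but with 3 libraries in a group this check cannot exclude one. With the replicate number as a block 6 members were called in rat (without *Bgn*), 10 in mouse and 6 for the species difference. Depth limits the rat values of *Aspn*, *Omd* and *Ogn*, since 3 counts stand for 0.116 to 0.149 CPM there. Without the filter rat *Aspn* gave −0.65 and *Omd* 0.34, neither called.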
